A study of Drosophila melanogaster with 6 samples.

Results

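Odorant-binding proteins (OBPs) and the 3 families of insect chemoreceptors were followed on arrays of adult Drosophila head RNA in which the RNA-binding protein LARK was overexpressed in neurons. A gene was a member if a probe set of the array was annotated with 1 symbol that starts with Obp, or with Or, Gr or Ir followed by a digit, or with Orco. The rule gave 159 of the 10844 genes with a symbol of their own on the array: 35 Obp genes, 53 Or genes (odorant receptors, Orco included), 28 Gr genes (gustatory receptors) and 43 Ir genes (ionotropic receptors). Each gene was read from 1 probe set, that of the highest mean log2 signal over the 6 arrays, since 5 genes (Or46a, Ir8a, Ir10a, Ir40a and Ir93a) had more than 1. Signals were deposited in MAS5 units, Affymetrix's linear summary of a probe set, and a signal above 40 on at least 1 array was the threshold for testing a gene.

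LARK overexpression flies came from elav-gal4 mothers and uas-lark fathers and were a mixture of elav-gal4; uas-lark/+ males and elav-gal4/+; uas-lark/+ females. Control flies came from elav-gal4 mothers and w1118 fathers and were a mixture of elav-gal4 males and elav-gal4/+ females, so both genotypes carried the driver, which is active in neurons. Flies were kept at 25 °C in a light and dark cycle of 12 hours each and frozen at ZT6 (6 hours after lights on). The design text of the series gives 1 RNA preparation for each genotype, from which 3 arrays were made by repeating the labeling, and on that description p-values measure the spread of labeling and hybridization and not that between flies. LARK overexpression array 1 differed from arrays 2 and 3 in many genes, as given below, so the values leave unsettled whether that description holds for these 3 arrays.

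Odorants that enter a sensory hair meet OBPs, small soluble proteins that non-neuronal support cells secrete into the fluid around the dendrites, and several OBPs are also made outside the sense organs. Olfactory neurons of the antenna and maxillary palp carry an Or protein together with the coreceptor Orco, or Ir proteins with the coreceptors Ir8a, Ir25a or Ir76b. Gr proteins serve taste neurons of the mouthparts and legs, and a pair of them, Gr21a and Gr63a, detects carbon dioxide in the antenna.

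The arrays differed in ways that touch all members. LARK overexpression array 1 stood apart: over the 9432 probe sets above 40 on at least 1 array, its log2 signals correlated with those of the 2 other LARK overexpression arrays at 0.877 and 0.892 and with those of the control arrays at 0.879 to 0.912, while LARK overexpression arrays 2 and 3 correlated at 0.946. The authors' scaling had set each array's trimmed mean to about 150 for both arrays of replicate 1, 85.02 for replicate 2 and 100.02 for replicate 3, so the median signal was highest on array 1 of each genotype (55.7 with LARK overexpression and 64.4 in the control). The ratio of the 3′ to the 5′ probe set of eIF-4a, a measure of RNA integrity and labeling, lay at 6.05 to 6.52 with LARK overexpression and 2.81 to 3.02 in the control. That of actin lay at 5.51 to 6.21 with LARK overexpression and 1.89 to 3.41 in the control, and that of GAPDH overlapped, at 3.23 to 5.06 with LARK overexpression and 2.82 to 4.04 in the control. The probe set for lark itself read 265.0, 143.3 and 165.5 on the 3 LARK overexpression arrays, against 223.5, 156.4 and 192.3 on the 3 control arrays, with a log2 change of -0.03 (standard error, SE, 0.45). Whether its probes lie within the uas-lark transgene is not given in the sources used here, so this probe set does not check the genotype labels. Results are given with all 6 arrays, and values without LARK overexpression array 1 are added for those that rest on it.

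OBP genes were read above 40 more often than receptor genes were. Of the 35 Obp genes, 17 (48.6%) exceeded 40 on at least 1 array and 12 did so on all 6, and 13 exceeded 100 on at least 1 array. Of the 124 receptor genes, 21 (16.9%) exceeded 40 on at least 1 array, none did so on all 6, and 1 exceeded 100. By family, 10 of the 53 Or genes (18.9%), 4 of the 28 Gr genes (14.3%) and 7 of the 43 Ir genes (16.3%) exceeded 40 somewhere. Over all 13966 probe sets of the array without its controls, 67.5% exceeded 40 on at least 1 array and 38.5% on all 6. Every family therefore lay below the share of all probe sets. Among the genes closest to the threshold, Or59b, Or43b and Ir93a had highest signals of 41.4, 41.5 and 41.8, and Ir25a and Ir60d had highest signals of 39.5 and 39.8.

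**Figure D1:**
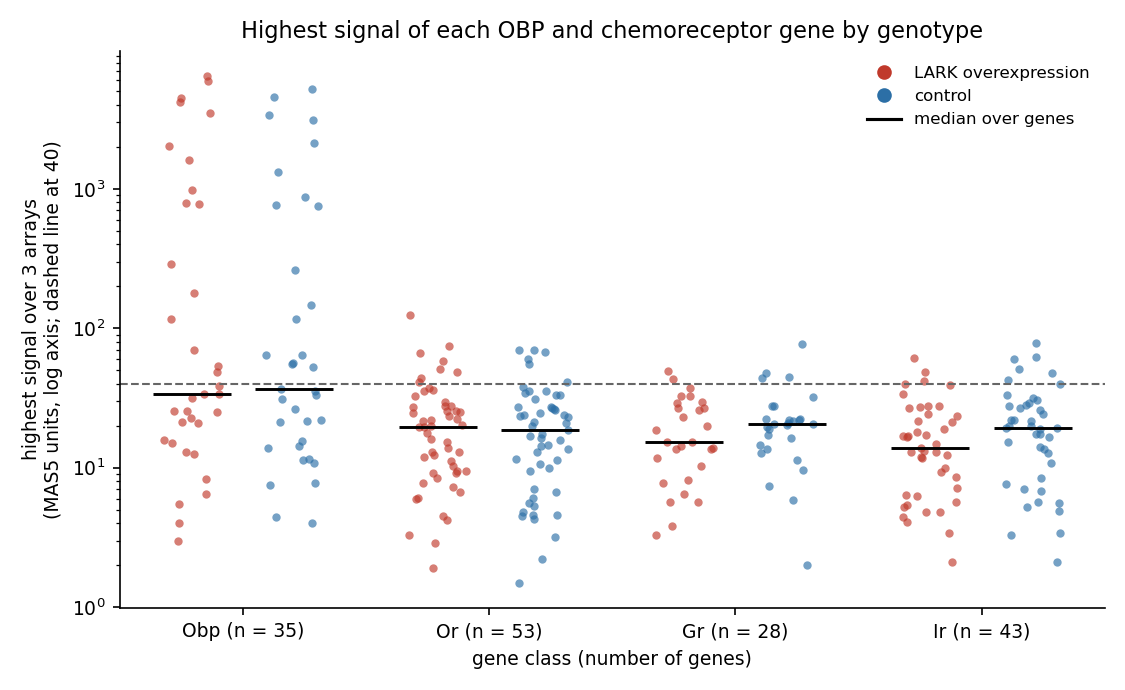
The highest signal of each gene over the 3 arrays of a genotype is plotted on a log axis for the 4 gene classes, with LARK overexpression left of the control. Points are genes, black bars are medians over genes, and the dashed line marks the signal of 40, which 17 of 35 Obp genes and 21 of 124 receptor genes exceeded on at least 1 of the 6 arrays.

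The counts per array overlapped between the genotypes. Between 12 and 16 Obp genes exceeded 40 on a single LARK overexpression array, against 14 to 17 on a single control array. Between 3 and 12 receptor genes did so on a LARK overexpression array, against 5 to 11 on a control array, and the highest count of each genotype was on its array 1. Over all probe sets, 6312 to 8132 exceeded 40 on a LARK overexpression array and 6708 to 8555 on a control array. Of the 21 receptor genes, 5 exceeded 40 on LARK overexpression arrays alone, 8 on control arrays alone and 8 in both genotypes, and of the 9432 probe sets 510 did so on LARK overexpression arrays alone, 959 on control arrays alone and 7963 in both. A gene that passed 40 in 1 genotype alone had to read higher there, so the counts and medians of tested genes below describe those genes and not the families.

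The OBPs with the strongest signals did not pass the test between genotypes. Signals of different probe sets depend on their probes, so they are not set against each other as RNA levels. Obp99c read 6445.0, 3113.4 and 3361.2 with LARK overexpression, against 5215.6, 3567.5 and 3748.8 in the control, for a log2 change of -0.02 (SE 0.47). Its groups overlapped, and in both genotypes array 1 was the highest. Obp56d, which is found in smell and taste organs, read 5956.8, 3415.8 and 3336.5 with LARK overexpression, against 4539.6, 3095.0 and 3647.7 in the control, for a log2 change of 0.14 (SE 0.45). Obp56e, its neighbor on the chromosome, read 4172.4, 1955.1 and 2293.4 with LARK overexpression, against 3134.7, 1643.1 and 2358.7 in the control, for a log2 change of 0.21 (SE 0.48).

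Obp19d, an OBP of the antenna and of taste hairs, read 4522.7, 1472.4 and 1578.9 with LARK overexpression, against 3388.2, 2038.3 and 2439.9 in the control. Its log2 change was -0.23 (SE 0.51), and without LARK overexpression array 1 it was -0.75 (adjusted p = 0.392, limma). Obp56g, Obp18a and Obp57c had log2 differences of 0.24, -0.09 and 0.24 with overlapping groups. The adjusted p of these 7 genes was 0.9993 in limma's test with Benjamini-Hochberg adjustment over the 9432 probe sets above 40.

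**Figure D2:**
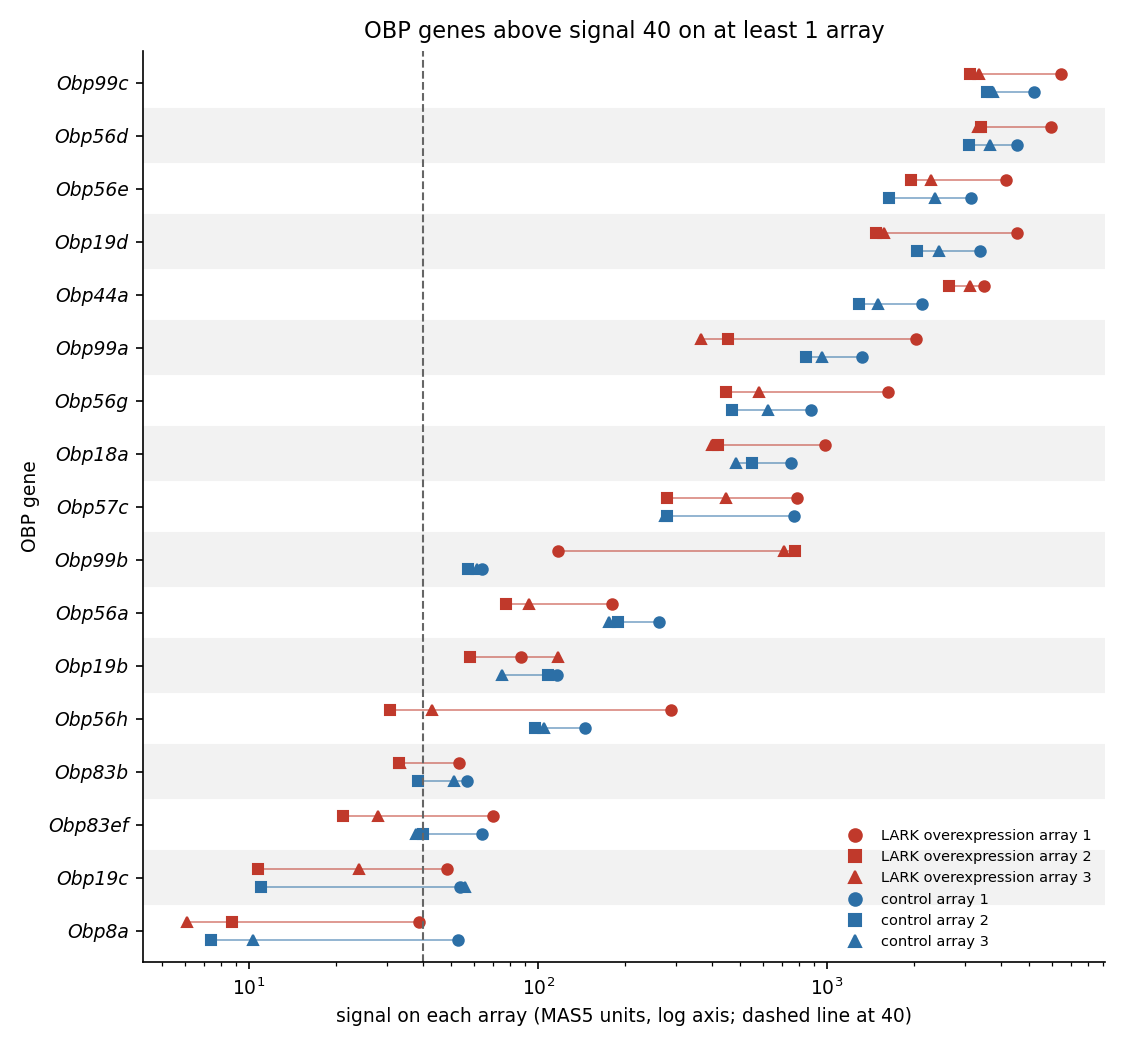
The signal on each of the 6 arrays is plotted on a log axis for the 17 OBP genes that exceeded 40 on at least 1 array, ordered by mean log2 signal, with LARK overexpression above the control in each row. Obp44a and Obp99b are the genes whose LARK overexpression arrays all lie above their control arrays, and LARK overexpression array 1 of Obp99b lies at 117.2 while arrays 2 and 3 lie at 773.3 and 709.4.

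Obp99b was the member that passed the test. It rose to 117.2, 773.3 and 709.4 with LARK overexpression, against 63.8, 57.3 and 61.5 in the control, where the 3 arrays lay close together. Its groups did not overlap, but LARK overexpression array 1 was less than 2-fold above the control array of the same number, while arrays 2 and 3 were over 10-fold above theirs. Obp99b carries the synonym tsx in RefSeq and is known from the fat body of the head, where it is more abundant in males. Its signal averaged 533 ± 362 with LARK overexpression and 60.9 ± 3.30 in the control (SD, n = 3 arrays each), and its log2 difference was 2.72 (SE 0.61, limma adjusted p = 0.0368). The difference by replicate number was 0.88, 3.75 and 3.53.

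The call for Obp99b depended on the fit and on single arrays. With the replicate number as a block, which pairs arrays hybridized on the same day, the adjusted p was 0.146 (limma). With each array centered on its median it was 0.145 (limma). Without control array 1 it was 0.104 (limma), and without LARK overexpression array 1 the log2 difference was 3.61 with an adjusted p of 0.000378 (limma). The direction was the same under all alternatives that were run, with log2 differences of 2.25 to 4.02.

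Of the 38 members tested, 1 rose and none fell at an adjusted p under 0.05, against 0.339% of the 9432 probe sets that rose and 1.21% that fell. Unadjusted p-values under 0.05 were found for 4 of the 38 members, Obp99b, Or22c, Ir68b and Gr32a. Among all 9432 probe sets, 1020 had such a p. Signals of the genotypes did not overlap, with LARK overexpression higher, for Obp44a, Obp99b, Or22b and Or22c, against 3.88% of all probe sets. They did not overlap, with LARK overexpression lower, for Or63a and Ir68b, against 8.58% of all probe sets. A difference of over 2-fold was found for 3 members that were higher with LARK overexpression (Obp99b, Or22c and Ir93a), against 4.09% of all probe sets, and for 3 that were lower (Or7a, Or74a and Gr32a), against 8.67%.

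Obp44a had the second largest positive difference among the tested OBPs. It read 3493.1, 2644.1 and 3116.7 with LARK overexpression, against 2137.0, 1290.9 and 1496.7 in the control. All LARK overexpression arrays lay above all control arrays, and the log2 difference was 0.71, 1.03 and 1.06 by replicate number. The mean log2 difference was 0.93 (SE 0.44), which did not pass (adjusted p = 0.468, limma). With the replicate block the adjusted p was 0.118. With the block and limma's prior that follows the signal and is robust to outlying probe sets (trend and robust prior), it was 0.0173 (limma). Obp44a is known from glia of the brain, and of 6 glial markers on the array 1 rose (e, ebony) and none fell. The marker e read 433.3, 1117.5 and 1257.8 with LARK overexpression, against 232.1, 115.6 and 114.9 in the control (adjusted p = 0.140 with the replicate block, limma). Its array 1 lay apart from arrays 2 and 3, unlike that of Obp44a. The markers repo, Gs2, moody, nrv2 and loco overlapped, with log2 differences of -0.10, 0.20, -0.55, 0.08 and 0.36. The part of glia in the difference of Obp44a was not tested.

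Obp56a lay on the other side. It read 179.9, 77.7 and 92.7 with LARK overexpression, against 262.9, 188.8 and 176.1 in the control. LARK overexpression array 1 overlapped the lowest control array, and the log2 difference was below 0 at each replicate number (-0.55, -1.28 and -0.93). The mean of -0.92 (SE 0.47) did not pass (adjusted p = 0.544, limma), while with the block, the trend and the robust prior the adjusted p was 0.0311 (limma).

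In several OBPs, LARK overexpression array 1 read above all control arrays and arrays 2 and 3 below all of them. Obp19d, Obp18a, Obp99c and Obp83ef were among them, and Obp99a and Obp56h are given here. Obp99a, an OBP of the antenna, read 2022.6, 453.3 and 366.6 with LARK overexpression, against 1316.6, 841.8 and 959.0 in the control. Obp56h, which has been linked to mating behavior and cuticular hydrocarbons, read 288.9, 30.8 and 42.8 with LARK overexpression, against 145.7, 97.2 and 104.6 in the control. Their log2 differences were -0.55 and -0.65 and did not pass (adjusted p = 0.9993 each, limma). Without LARK overexpression array 1 the log2 change of Obp99a was -1.32 (adjusted p = 0.0966, limma). That of Obp56h was -1.65 (adjusted p = 0.0434, limma), past the threshold.

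**Figure D3:**
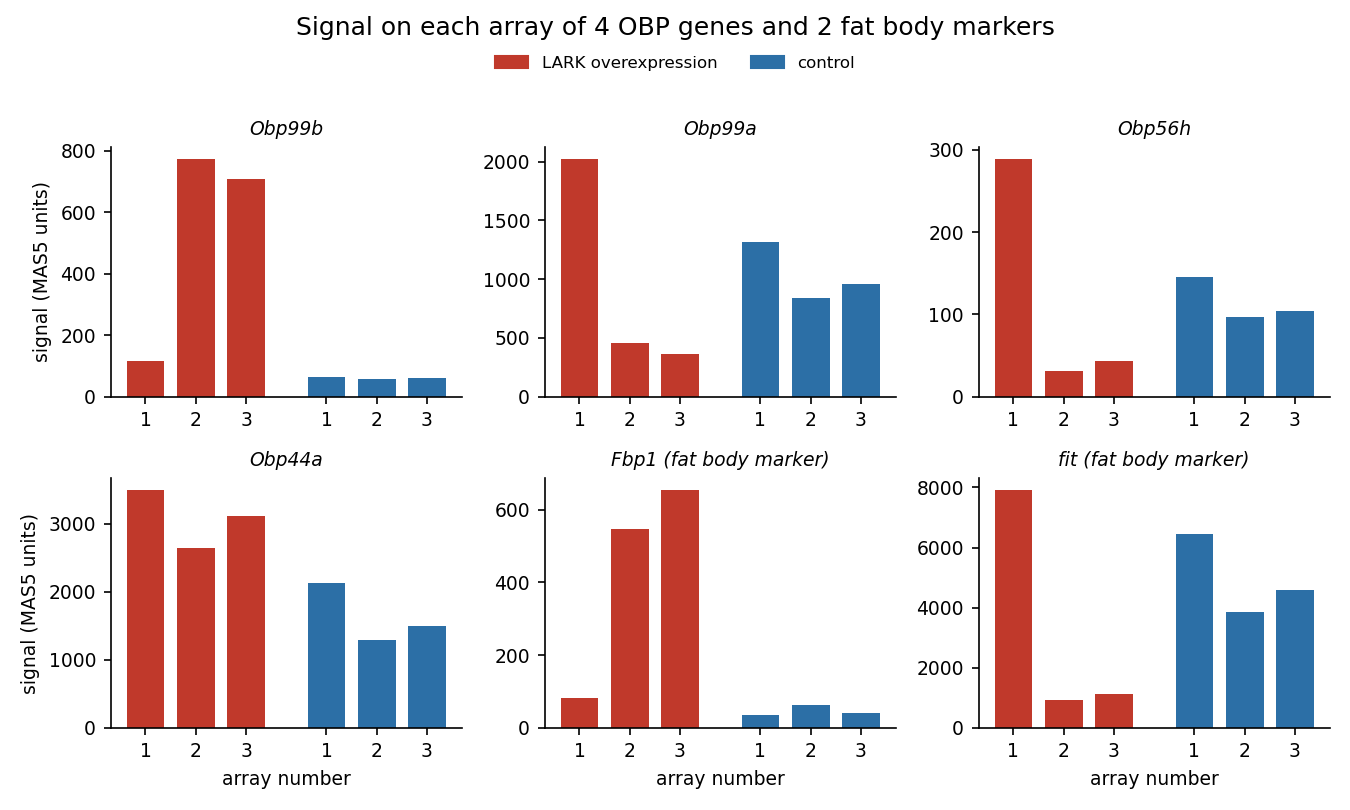
Signals in MAS5 units on each of the 6 arrays are drawn as bars for 4 OBP genes and 2 fat body markers, with LARK overexpression left of the control. LARK overexpression array 1 differs from arrays 2 and 3 in Obp99b, Obp99a and Obp56h and in both markers, while the 3 LARK overexpression arrays of Obp44a lie between 2644.1 and 3493.1, all above its control arrays.

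Some markers of other tissues shared the array pattern of Obp99b and others did not. Fbp1, a receptor of the fat body for storage proteins, rose to 81.0, 545.5 and 653.1 with LARK overexpression, against 34.8, 62.1 and 41.3 in the control (log2 difference 2.78, adjusted p = 0.0431, limma; 0.122 with the replicate block). Fbp2 read 10.6, 625.6 and 686.5 with LARK overexpression, against 12.1, 23.2 and 17.7 in the control. The female-specific fat body gene fit read 7905.9, 917.9 and 1122.3 with LARK overexpression, against 6451.0, 3842.8 and 4572.0 in the control, and followed the order of arrays seen in Obp99a and Obp56h. Log2 changes were -0.27, -0.28 and -0.21 for the yolk protein genes Yp1, Yp2 and Yp3. They were -0.61 for the lipoprotein gene apolpp and 0.10 for Lsp2. Each had LARK overexpression array 1, which was scaled higher, above arrays 2 and 3. On centered arrays, the log2 of arrays 2 and 3 minus that of array 1 was -0.16, -0.25 and -0.16 for Yp1, Yp2 and Yp3. It was -1.01, -1.09 and -2.32 for apolpp, Lsp2 and fit. Of the 8 fat body markers on the array, all above 40, 3 lay above 0 and 5 below, 1 rose and none fell, and their summed signal spanned 29416 to 60132 with LARK overexpression and 44412 to 47747 in the control.

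Of the 6 markers of sex on the array (Yp1, Yp2, Yp3, fit, Sxl and dsx), none passed the test, and their summed signal spanned 25290 to 51913 with LARK overexpression and 40296 to 42588 in the control. Sxl, the switch gene of female development, read 59.8, 88.8 and 113.1 with LARK overexpression, against 294.1, 199.0 and 245.3 in the control, for a log2 change of -1.53 (adjusted p = 0.118, limma). The flight muscle gene fln read 20.6, 926.1 and 1242.6 with LARK overexpression, against 19.6, 7.4 and 7.6 in the control. Of the 8 muscle markers, 7 lay above 0 and 1 below, and fln was the 1 that passed the test. Act88F read 91.0, 2989.1 and 3293.6 with LARK overexpression, against 149.4, 83.6 and 117.7 in the control. TpnC4 read 1.2, 361.4 and 570.2 with LARK overexpression, against 1.3, 1.6 and 4.2 in the control. These 2 shared the array order of fln but did not pass (adjusted p = 0.137 and 0.130, limma). Of 14 gut markers above 40, 6 rose, and the summed signal of the 17 on the array spanned 1150 to 3629 with LARK overexpression and 504 to 781 in the control. The part of fat body, muscle, gut, sex ratio and RNA integrity in the difference of Obp99b was not tested. With the replicate block no probe set of the 9432 was called, members and markers included, although 7 of the 38 members had an unadjusted p under 0.05 (limma), and with the block, the trend and the robust prior 571 were called. In bulk heads, fewer cells of a type and less RNA per cell cannot be told apart.

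Most OBPs that mark the antenna were not read above 40. Of 9 antennal OBPs on the array, 4 exceeded 40 (Obp19d, Obp56d, Obp83b and Obp99a), and Obp28a, Obp69a, Obp84a, Obp59a and Obp19a did not exceed 40 on any array. Obp83b, a trichoid sensillum OBP, read 53.2, 32.9 and 33.3 with LARK overexpression, against 56.7, 38.3 and 51.2 in the control, for a log2 change of -0.31 (SE 0.45). Obp28a, an abundant antennal OBP, read 25.6, 16.4 and 18.8 with LARK overexpression, against 15.6, 4.6 and 7.3 in the control. The OBP lush, which carries a name of its own and was not counted as a member, read 4.2, 32.2 and 37.7 with LARK overexpression, against 11.8, 3.8 and 4.1 in the control. No antennal OBP passed the test.

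All 3 OBPs of seminal fluid on the array exceeded 40. Obp56e and Obp56g did so on all 6 arrays, with log2 differences of 0.21 and 0.24. Obp8a read 38.7, 8.7 and 6.1 with LARK overexpression, against 52.7, 7.4 and 10.3 in the control, above 40 on control array 1 alone. Of the accessory gland markers, 10 were on the array and none exceeded 40.

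None of the neighboring Obp56 genes, and none of the Obp19 genes, passed the test. In the RefSeq gene order, Obp56a to Obp56f on chromosome arm 2R follow each other without another gene between them, and 4 of the 6 were on the array. Obp56a had a log2 difference of -0.92 and Obp56d and Obp56e of 0.14 and 0.21, while Obp56c did not exceed 21.3. In the pair Obp56g and Obp56h the log2 differences were 0.24 and -0.65. In the row Obp19a to Obp19d on the X chromosome, Obp19d reached 4522.7, Obp19b 117.5 and Obp19c 55.8, and Obp19a did not exceed 25.0. The 3 with a test, Obp19b, Obp19c and Obp19d, had log2 differences of -0.22, -0.47 and -0.23. Obp59a, Obp58b, Obp58c and Obp58d, also neighbors on 2R, stayed at or under 25.7.

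The coreceptors that Or and Ir neurons share were not read above 40 on any array. Orco read 11.2, 6.0 and 6.8 with LARK overexpression, against 14.4, 11.0 and 8.0 in the control. Ir8a did not exceed 14.0, Ir76b did not exceed 31.6, and Ir25a reached 39.5 on LARK overexpression array 1. A signal at or under 40 is a limit of these probe sets and does not show that the RNA was absent. Head tissue was present in both genotypes by other markers. The photoreceptor genes trp and chp read 1657.4 to 4743.1 and 1297.2 to 2855.3 with LARK overexpression. In the control they read 2182.4 to 4384.2 and 1115.5 to 2337.7. They do not show whether other tissue was included, which was not tested. The rises of fln and of gut markers are given above. Of 5 photoreceptor and neuron markers on the array 1 fell, the synaptic vesicle gene nSyb, which read 209.1, 120.7 and 117.4 with LARK overexpression, against 602.2, 514.5 and 625.4 in the control (adjusted p = 0.0357, limma; 0.0856 with the replicate block). The neuron marker Appl read 91.5, 86.6 and 83.4 with LARK overexpression, against 225.4, 165.6 and 275.1 in the control, without overlap. Its log2 change of -1.32 did not pass (adjusted p = 0.184, limma). With the block, the trend and the robust prior the adjusted p of Appl was 0.0108 (limma). The groups of the neuron marker elav overlapped, with a log2 change of -0.13. The part of such changes in the signals of receptor genes, which neurons make, was not tested. Of the 8 antennal markers on the array, 5 exceeded 40 and none passed the test. Their summed signal spanned 154 to 241 with LARK overexpression and 145 to 282 in the control.

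The Or genes above 40 included larval as well as adult receptors. Or22c, a receptor of larval olfactory neurons, was the receptor gene with the strongest signal and the 1 receptor gene above 100. It read 124.2, 73.6 and 84.3 with LARK overexpression, against 56.4, 26.6 and 60.6 in the control, and its groups did not overlap. Its log2 change was 1.03 (SE 0.48, adjusted p = 0.453, limma) and was above 0 at each replicate number (1.14, 1.47 and 0.48). Of 12 Or genes on the array from a list of larval receptors, 3 exceeded 40 (Or22c, Or63a and Or74a), against 7 of the 41 Or genes not listed. The list is not a full account of larval expression, so the 41 may include receptors that larvae also use. The counts do not set larval against adult receptors.

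Or63a, also larval, read 26.6, 27.8 and 25.3 with LARK overexpression, against 55.0, 42.3 and 34.7 in the control. The groups did not overlap, and the log2 change of -0.70 (SE 0.44) did not pass (adjusted p = 0.708, limma). Or74a, the other listed larval receptor above 40, was so on LARK overexpression array 1 alone (51.2). Its log2 difference of -1.31 rested on signals of 2.5 and 6.7 on arrays 2 and 3.

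Among adult receptors, Or22b, which shares the antennal neuron ab3A with Or22a, read 41.7, 58.7 and 54.0 with LARK overexpression, against 37.8, 31.2 and 35.5 in the control. It exceeded 40 on all 3 LARK overexpression arrays and on no control array, with a log2 change of 0.55 (SE 0.43, adjusted p = 0.883, limma). On centered arrays without LARK overexpression array 1 the log2 difference was 1.11 (adjusted p = 0.0494, limma). Its partner Or22a did not exceed 27.1.

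Or46a was the 1 of 7 palp receptors above 40. It read 74.2, 27.0 and 25.5 with LARK overexpression, against 69.3, 50.2 and 41.1 in the control, for a log2 change of -0.49 (SE 0.51). The second probe set annotated to Or46a did not exceed 17.5. Without LARK overexpression array 1 the log2 change of Or46a was -0.99 (adjusted p = 0.224, limma). The antennal receptors Or7a, Or2a and Or59b had log2 differences of -1.02, -0.25 and -0.79 with overlapping groups, and Or35a and Or43b exceeded 40 on LARK overexpression array 1 alone (43.9 and 41.5). No Or gene passed the test.

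**Figure D4:**
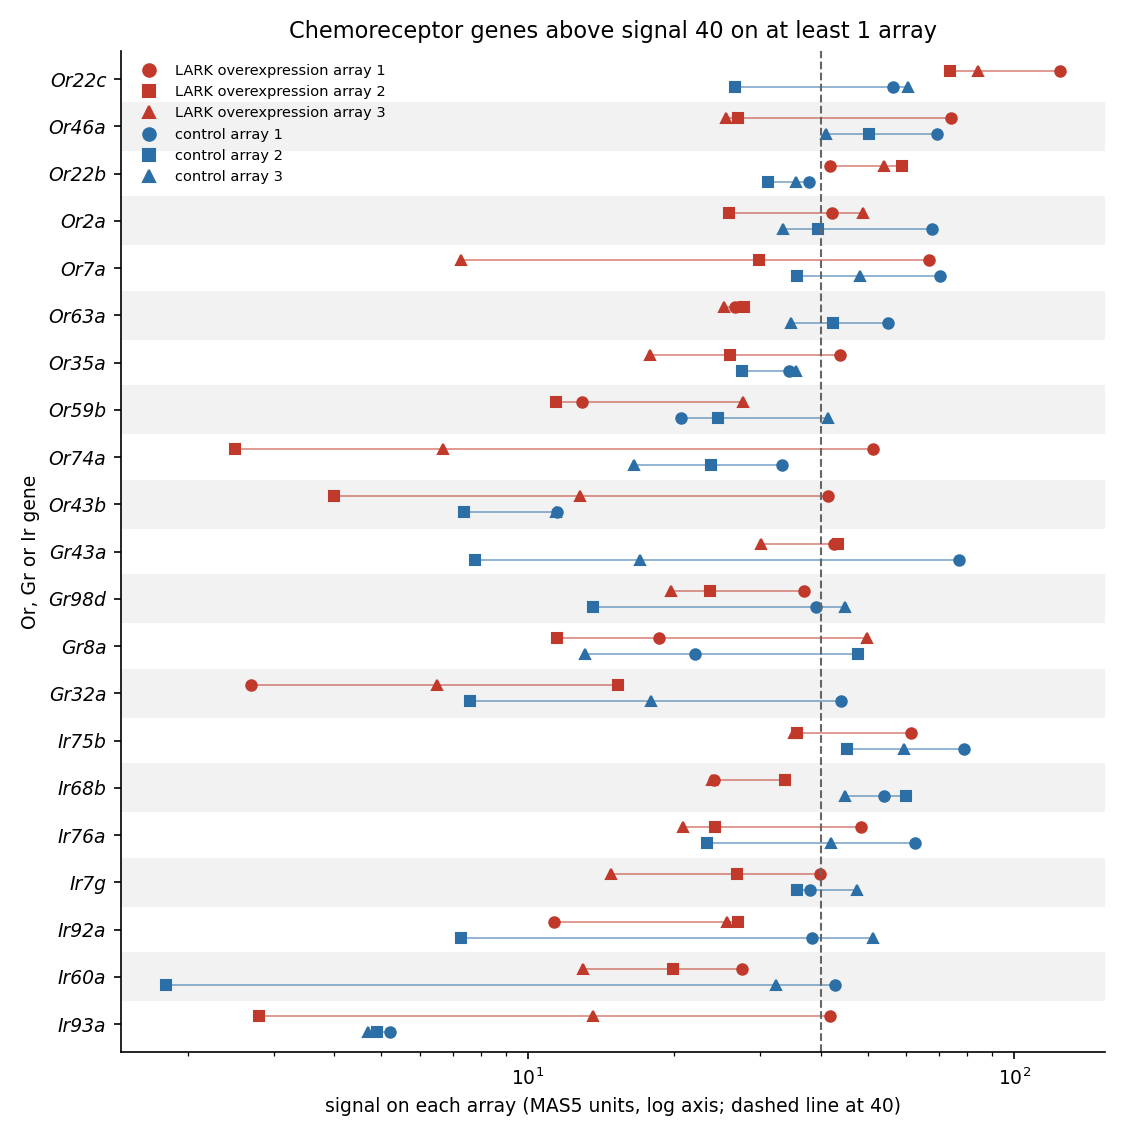
The signal on each of the 6 arrays is plotted on a log axis for the 21 Or, Gr and Ir genes that exceeded 40 on at least 1 array, with LARK overexpression above the control in each row. No gene lies above 40 on all 6 arrays, and the LARK overexpression and control arrays are separate for Or22c, Or22b, Or63a and Ir68b.

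Few Gr genes, whether receptors for sugars, bitter compounds or carbon dioxide, exceeded 40. Gr43a, a fructose receptor of the mouthparts and brain, read 42.5, 43.5 and 30.1 with LARK overexpression, against 76.9, 7.8 and 17.0 in the control. Its log2 change was 0.82 (SE 0.65), and with signals under 40 set to 40 it was -0.24. The other sugar receptors on the array, Gr5a, Gr61a and Gr64f, did not exceed 25.8.

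Gr32a, a receptor for bitter compounds and a male pheromone, read 2.7, 15.3 and 6.5 with LARK overexpression, against 44.0, 7.6 and 17.9 in the control. It was above 40 on control array 1 alone, its groups overlapped, and its log2 difference of -1.49 (SE 0.66) did not pass (adjusted p = 0.413, limma). With signals under 40 set to 40 the log2 difference was -0.05. The bitter receptors Gr33a, Gr66a, Gr89a and Gr93a did not exceed 32.1. The carbon dioxide receptors Gr21a and Gr63a did not exceed 22.3 and 19.6. Gr8a, which responds to the plant amino acid L-canavanine, and Gr98d exceeded 40 on 2 arrays and on 1 array, with log2 differences of -0.13 and -0.16.

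Of the 7 Ir genes above 40, 4 were so on control arrays alone, 1 on a LARK overexpression array alone and 2 in both genotypes, and over all probe sets more were also above 40 in the control alone (959) than with LARK overexpression alone (510). Ir75b, a receptor of the antenna, read 61.3, 35.7 and 35.3 with LARK overexpression, against 79.0, 45.3 and 59.4 in the control, for a log2 change of -0.49 (SE 0.46). Ir76a, an amine receptor of the antenna, read 48.3, 24.3 and 20.8 with LARK overexpression, against 62.5, 23.4 and 41.9 in the control, for a log2 change of -0.44 (SE 0.51). Ir68b read 24.1, 33.8 and 23.9 with LARK overexpression, against 53.9, 60.0 and 44.8 in the control.

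Ir68b was above 40 on all 3 control arrays and on no LARK overexpression array. Its log2 change was -0.97 (SE 0.44) and was close at each replicate number (-1.16, -0.83 and -0.91), but it did not pass (adjusted p = 0.431, limma). Ir7g, Ir92a and Ir60a each exceeded 40 on 1 control array and on no LARK overexpression array, with overlapping groups and log2 differences of -0.67, -0.29 and 0.51. Ir93a, which serves temperature and humidity sensing, went the other way on a single array. It read 41.8, 2.8 and 13.6 with LARK overexpression, against 5.2, 4.9 and 4.7 in the control, and its other probe set did not exceed 5.6. Its log2 change of 1.24 did not pass (adjusted p = 0.629, limma), and with signals under 40 set to 40 it was 0.02. No Ir gene passed the test.

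**Figure D5:**
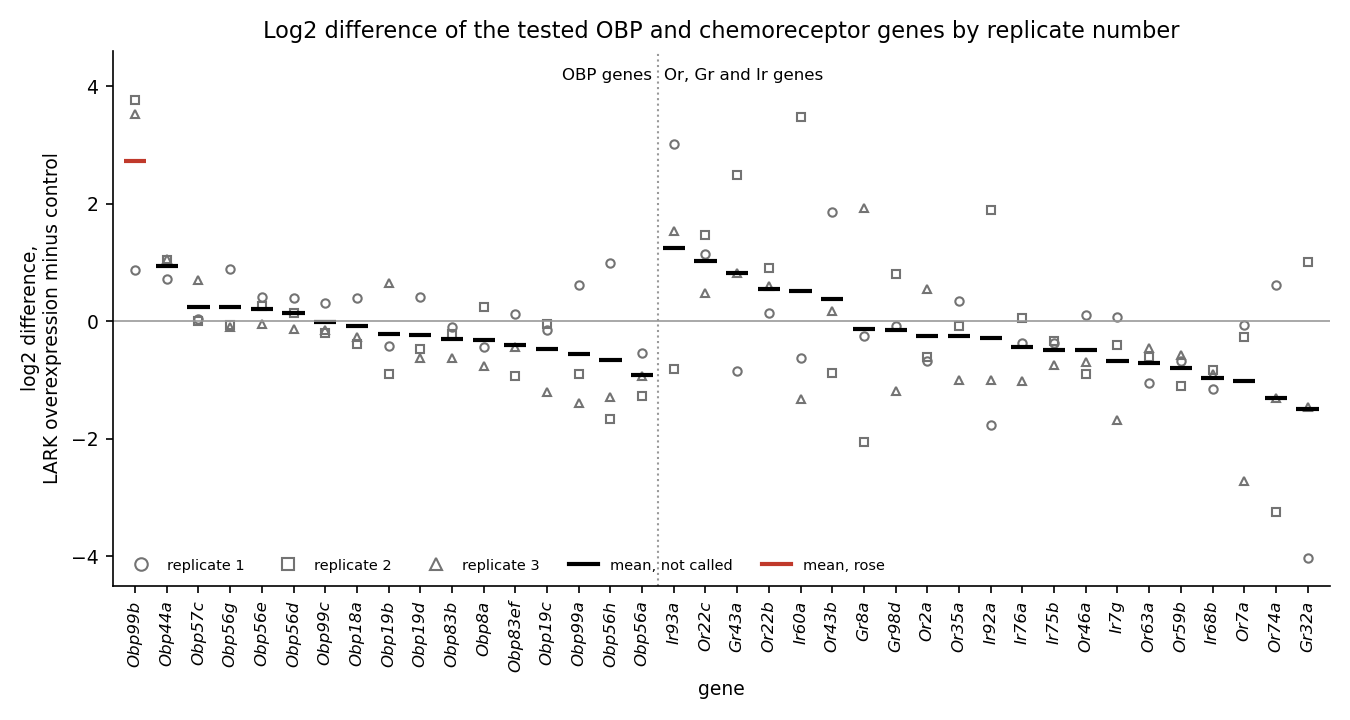
The log2 difference of LARK overexpression minus control is plotted for the 38 tested members, with open symbols for the 3 replicate numbers and bars for the mean. Obp99b is the member whose mean is drawn as called, with 0.88, 3.75 and 3.53 by replicate number, and the spread between replicate numbers of Ir60a, Gr8a and Gr32a spans 0.

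As a group, the tested OBPs had a median log2 difference of -0.22 (17 genes, 6 above 0 and 11 below) and the tested receptors of -0.29 (21 genes, 6 above 0 and 15 below), beside -0.07 over all 9432 probe sets. With arrays centered on their medians these values were -0.02, -0.09 and 0.13, so the centering moved all medians upward by about 0.20. By replicate number the median of the OBPs was 0.39, -0.20 and -0.27, and that of the receptors -0.25, -0.34 and -0.75, beside -0.03, -0.11 and -0.10 over all probe sets. For the 13 OBPs above 100 on at least 1 array the median was -0.02, with 6 above 0 and 7 below. Without LARK overexpression array 1 the median of the OBPs was -0.51 and that of the receptors -0.63 (17 genes), beside -0.34 over all probe sets tested.

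LARK overexpression array 1 differed from the mean of arrays 2 and 3 by over 2-fold, on centered arrays, in 5 of the 17 tested OBPs (29.4%) and 9 of the 21 tested receptors (42.9%), beside 13.7% of all 9432 probe sets. Control array 1 differed in the same way in 1 OBP (5.88%) and 4 receptors (19.0%), beside 7.33% of all probe sets. Or74a, Or43b, Ir93a and Or35a were tested because of LARK overexpression array 1 alone, and Gr32a, Ir60a and Obp8a because of control array 1 alone. In these genes that array had to read highest. The shares therefore describe the tested genes and do not set the families against other genes. Apart from Or22c, no receptor gene exceeded 79.0 on any array. Without LARK overexpression array 1 the log2 changes of Obp99c, Obp56d, Obp56e and Obp56g were -0.35, -0.14, -0.12 and -0.31, those of Obp18a and Obp57c -0.51 and -0.14, and that of Obp44a 0.84. Those of Or22c, Or7a and Gr32a were 0.81, -1.75 and -0.86, and those of Ir75b, Ir76a and Ir68b -0.75, -0.81 and -0.89. None of these passed the test without that array on the signals as deposited, and on centered arrays Obp44a did, with a log2 change of 1.25 (adjusted p = 0.0147, limma).

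Other genes of chemosensation were read from a list of 45 partners (accessory proteins, pheromone channels and transcription factors), of which 29 were on the array and 16 exceeded 40. Of these 16, none rose and 1 fell, and their median log2 difference was -0.06, with 7 above 0 and 9 below. The gene that fell was CheB42b, of a family of proteins found in taste hairs. It read 9.2, 4.0 and 4.6 with LARK overexpression, against 49.3, 28.0 and 68.7 in the control, and no arrays overlapped. Its log2 change was -3.04 (SE 0.50, adjusted p = 0.00728, limma), it was tested on the strength of 2 control arrays above 40, and with signals under 40 set to 40 it was -0.36. With the replicate block the adjusted p of CheB42b was 0.0783 (limma).

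The membrane proteins Snmp1 and Snmp2 of pheromone-sensing neurons and support cells had log2 differences of -0.27 and -0.53, and the antennal proteins Os-C and a10 of -0.41 and -0.07, none past the test. The antennal ammonium transporter Amt did not exceed 8.2 on any array, and its relative Rh50 read 193.8 to 438.3 with LARK overexpression and 202.1 to 344.2 in the control. The pickpocket channels of pheromone taste, ppk23, ppk25 and ppk29, did not exceed 39.7.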

How the data were processed

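Adult head RNA of 2 genotypes was measured on 6 Affymetrix Drosophila arrays, 3 per genotype. The deposited values are linear signal intensity per probe set, which the authors computed with MAS5 (per the submitters' processing notes) and scaled per array. Gene names came from the platform's annotation, and all 159 member symbols matched RefSeq. 5 probe sets with several symbols that include a member and 44 array controls were left out. Probe sets above 40 on at least 1 array (9432 of 13966) were tested on log2 signal with limma 3.58.1 (R 4.3.3). P-values were adjusted by Benjamini-Hochberg and called under 0.05, after checks on simulated data. With nothing changed, this fit made 29 false calls there and the fit with the replicate block made 0. With changed probe sets added, the false calls were 43 and 6. Of 67, 67 and 66 probe sets changed by 1, 2 and 3 in log2, this fit recovered 1, 53 and 65. The fit with the block recovered 0, 18 and 42. A call by the fit without the block, such as that of Obp99b, may thus be false. The simulated noise was normal and independent between probe sets, with spreads shuffled over probe sets and 1 shift per replicate number. It held no departure of LARK overexpression array 1 shared by many genes, so the counts do not give the error rate for these data. Replicate numbers shared a hybridization day and a scaling (3 days), so they pair arrays. Deviations from the genotype means correlated at 0.0936, 0.172 and 0.0256 within the numbers and at -0.212 to 0.102 across them. These ranges overlapped, so the pairing rests on the shared day and scaling.

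Alternatives were centering, quantile normalization, an offset of 16, a floor at 40, other filters, a trend with a robust prior, the replicate block, the mean of a gene's probe sets and leaving out each array, with replicates 2 and 3 alone added after the data were seen. Members and gene lists were chosen with earlier results of these data known. Genes named in the text were drawn from members past the test and the 10 Obp and the 5 Or, Gr and Ir genes of highest mean signal. The 5 largest differences each way, the coreceptors and carbon dioxide receptors, and leading genes of the lists were added. Others were chosen after their values were seen. Of the genes of highest mean signal, Gr2a, Gr68a and Ir7a reached 32.8, 23.1 and 28.9, were not tested and are not described above. Not all leading genes of the lists are described. Precision is limited by the number of arrays.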

Additional observations from a re-analysis of the deposited data

How the results depend on the processing

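The count of members past the test, 1 as reported, was 0 with centered arrays, quantile normalization, signals under 40 set to 40, no filter and the replicate block, and it was 2 (Obp44a and Obp56a) with the block, a trend and a robust prior. Leaving out 1 array gave 0 to 4. Replicates 2 and 3 alone gave 1 and, on centered arrays, 3 (Obp44a and Obp99b higher, Obp56h lower). Without LARK overexpression array 2, Ir93a was called higher and Gr32a lower beside Obp99b. Each of these 2 genes exceeded 40 on 1 array alone, and on centered arrays without LARK overexpression array 2 no member was called. Without control array 1 no member was called, and without LARK overexpression array 1 Obp56h was called lower beside Obp99b. The cause was not tested. The median of the OBPs ran between -0.51 and 0.27 with 1 array left out. That of the receptors ran between -0.70 and -0.081, and was 1.03 with a filter above 100, which leaves 1 gene. With that filter the count of receptor genes was 1, and with a filter on all 6 arrays it was 0. The counts of genes above 40 ranged over 16 to 17 for OBPs and 17 to 21 for receptors with 1 array left out.

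Of 972 values of the 42 named and tested genes under alternatives, 749 kept call and direction. The sign of the log2 difference turned in 14 with all 6 arrays and in 5 with replicates 2 and 3 alone. With centered arrays it was 0.19 for Obp99c, 0.11 for Obp18a, 0.046 for Gr98d, 0.075 for Gr8a and 0.13 for a10. With quantile normalization it was 0.02 for Obp99c, 0.057 for Gr98d, 0.12 for Gr8a, 0.13 for a10 and 0.00 for Yp1. With signals under 40 set to 40 it was -0.24 for Gr43a, 0.019 for Gr8a, 0.12 for Or74a and 0.19 for a10. With replicates 2 and 3 alone it was -0.081 for Obp56g, and on centered arrays 0.021 for Obp99c, 0.17 for Or2a, 0.005 for Gr98d and 0.13 for Gr8a. With 1 array left out the sign turned in 54 values. The log2 differences with 1 array left out ran between -0.35 and 0.27 for Obp99c, -0.14 and 0.42 for Obp56d, -0.12 and 0.48 for Obp56e, -0.75 and 0.15 for Obp19d, -1.32 and 0.052 for Obp99a, and -0.31 and 0.66 for Obp56g. For Obp18a they ran between -0.51 and 0.28, and they ran between -0.14 and 0.73 for Obp57c, -0.46 and 0.088 for Or2a, -0.70 and 0.18 for Gr98d, -0.72 and 0.75 for Gr8a, -0.43 and 0.32 for a10, -0.54 and 0.12 for Yp1, and -0.58 and 0.10 for Yp2. Signals near 40 limit what the receptor probe sets can show.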

Other observations

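A probe set annotated to both Obp57d and Cpr57A, a cuticle protein gene, was left out of the members because its signal cannot be assigned to 1 gene. It read 210.1, 140.6 and 155.0 with LARK overexpression, against 136.8, 83.9 and 92.7 in the control, and its groups did not overlap. Its log2 difference was 0.70 (standard error 0.45, adjusted p = 0.724, limma), and 0.62, 0.74 and 0.74 by replicate number. With the replicate block, a trend and a robust prior the adjusted p was 0.0453 (limma). The other 4 probe sets with several symbols that include a member (Obp50b with Obp50c, Gr64b with Gr64c, Gr64d with Gr64e, and Ir75d with COX6AL2) did not exceed 38.7 on any array.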
